A study of Juglans regia with 21 samples.

Results

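The 7 genes described here are annotated in walnut (Juglans regia) as parts of the circadian clock and of its photoperiod output. They are TOC1, 2 pseudo-response regulator-like genes, 2 ELF4-LIKE 4 copies, 1 cyclic dof factor 2-like gene and 1 CONSTANS-LIKE 1-like gene. They were taken by gene ID from 31425 genes, and their read counts over all stages entered that choice. Their levels are therefore given as a description, with no test. Tests were run for 203 other genes of the clock and of light and photoperiod signalling.

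The RNA came from the pellicle, the skin-like seed coat of the nut, of cultivar Xinwen179 grown in a field. The pellicle was sampled at 8, 9, 11, 13, 15, 17 and 19 weeks after pollination, called 8W to 19W below, with 3 libraries per stage and 21 in all. All libraries share the cultivar and tissue, and the labels name no treatment. Whether the 3 libraries per stage stand for different trees is not stated in the labels, and the p-values below rest on library-to-library spread that could be purely technical. The labels also do not give the hour of the day at which fruit was collected. Levels of clock genes may depend on that hour, and its part in the differences between stages was not tested. Without it, stage and hour of collection cannot be told apart in the levels below.

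In plants the circadian clock is built from genes that repress and activate each other in daily turns. In Arabidopsis the morning factors LHY and CCA1 repress TOC1 and the evening genes, the pseudo-response regulators including TOC1 repress LHY and CCA1, and ELF4 forms the evening complex with ELF3 and LUX. Cyclic dof factors repress CONSTANS, which in long days activates the florigen gene FT. How these genes act in a seed coat is less well described.

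TOC1, Jr6DG00046500, lies on chromosome 6D from 7917363 to 7923247 on the plus strand, and its deposited annotation lists a receiver domain and a CCT motif, the pair of domains that defines pseudo-response regulators. The PRR37-like gene, Jr7SG00079000, lies on 7S from 8891750 to 8901097 on the minus strand and carries the same pair of domains. Jr7DG00099200, on 7D from 10403399 to 10405464 on the minus strand, is named APRR9-like from the NR database but CONSTANS-LIKE 1 from Swiss-Prot, and only a CCT motif is listed for it. A CCT motif occurs in both families, so its name is uncertain, and it is called APRR9-like here for its NR match.

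The ELF4-LIKE 4 genes are Jr1SG00137100 on 1S from 24545051 to 24546796 and Jr2SG00144300 on 2S from 24699057 to 24699401, both on the plus strand, and they are called the 1S and 2S copies. Swiss-Prot names the 1S copy ELF4-LIKE 2. The CDF2-like gene, Jr3SG00102900, lies on 3S from 20089318 to 20091822 on the plus strand and has a dof domain. The CONSTANS-LIKE 1-like gene, Jr2DG00152000, lies on 2D from 18583319 to 18584206 on the plus strand. Its Swiss-Prot match is B-box domain protein 31, a short B-box protein, no domain is listed for it, and its gene model of 519 bases is shorter than the 1005 bases of the APRR9-like gene. Arabidopsis B-box microproteins of that kind bind CONSTANS. The name CONSTANS-LIKE 1-like follows the NR match of Jr2DG00152000 and is uncertain too. Coordinates are those of the deposited table, whose genome build is not given in the sources used here.

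Library totals ranged from 13144713 to 17878761 reads. Levels within a gene are given as scaled CPM, which are counts scaled to a common library size after correction by TMM factors of 0.880 to 1.14. Pairs of a gene and its counterpart on the partner chromosome are given in FPKM, which is explained below. Within a stage, libraries differed by more than counting noise (chi-square over its degrees of freedom 3.13 to 28.1), and all were kept as separate replicates. Of 43 seed-coat marker genes, mostly for flavonoid and proanthocyanidin synthesis, 25 had reads in every library and 4 had none, and their summed level stayed between 485 and 932 scaled CPM in the 21 libraries. The 22 kernel markers, storage globulins and oleosins, summed to a mean of 272 scaled CPM at 8W and 20737 at 19W, with 18565 at 11W and 4560 at 17W. The 45 green-tissue markers summed to means of 473 to 1319. The part of kernel or green tissue in the levels below was not tested, and in bulk RNA fewer cells of a type and less RNA per cell cannot be told apart.

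All 7 genes passed the filter on low counts. The highest stage mean was at least 2-fold above the lowest for 7 of 7 genes, against 76.9% of all 21707 tested genes, and at least 4-fold for 4 of 7, against 40.3%. The set held wide and narrow ranges. The CDF2-like gene had a wider range than 94.6% of tested genes and the CONSTANS-LIKE 1-like gene a wider one than 91.6%. The 1S ELF4 copy had a wider range than only 38.0% of them. By mean level over all libraries, the PRR37-like gene stood above 94.8% of tested genes and the APRR9-like gene above 9.17%.

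**Figure D1:**
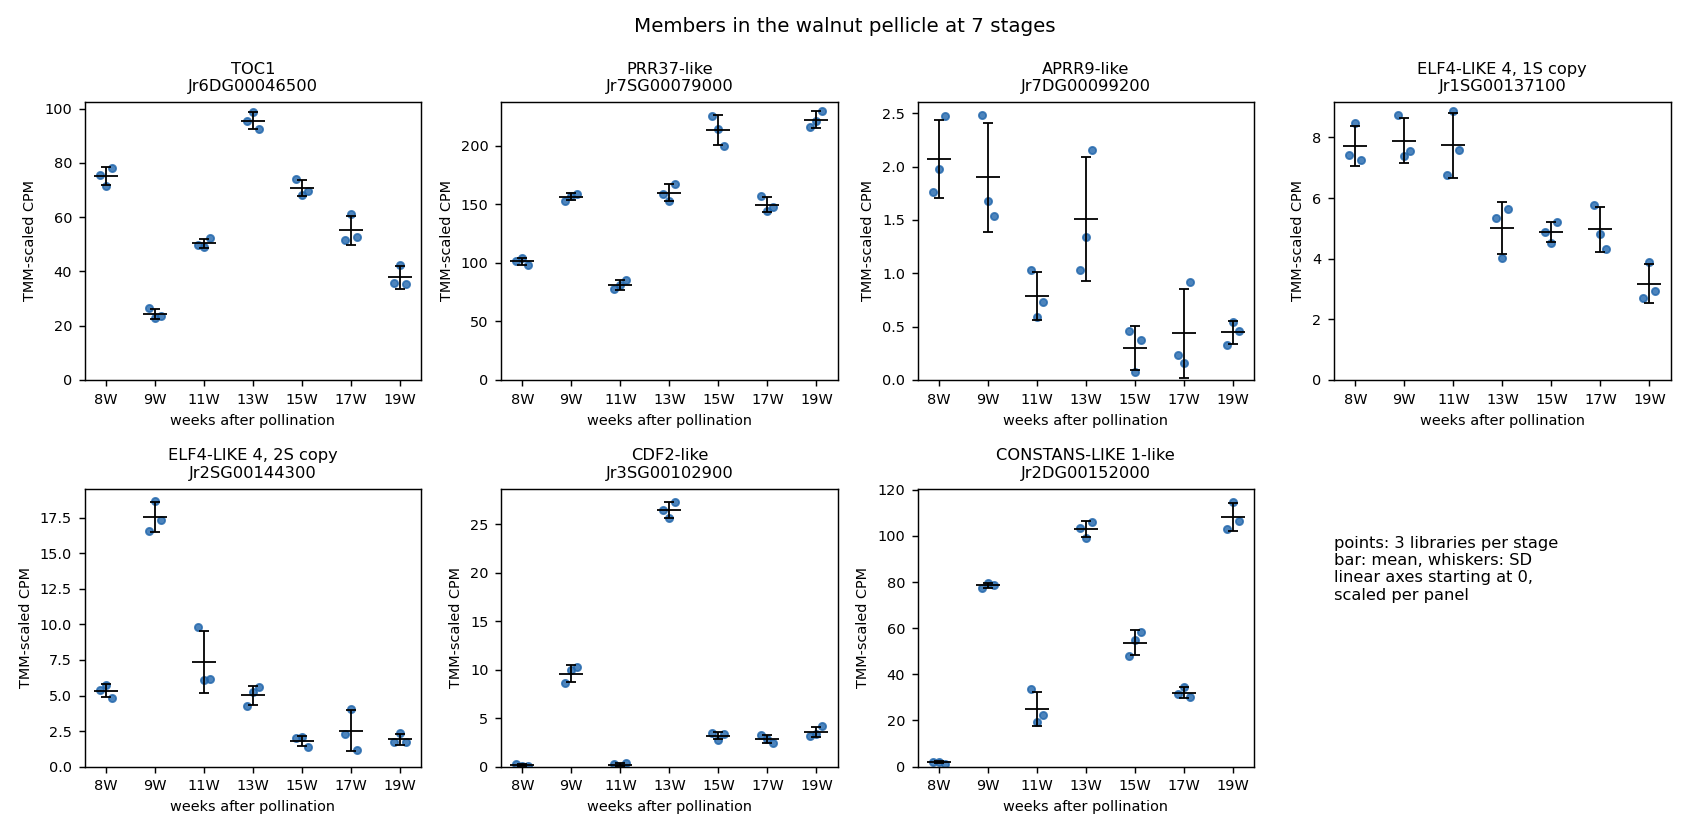
Scaled CPM of the 7 genes in every library (points, 3 per stage) with the stage mean and SD, on linear axes that start at 0 and are scaled per panel. The CDF2-like and CONSTANS-LIKE 1-like genes are high at 9W and 13W, where TOC1 has its lowest stage mean of 24.3 and its highest of 95.5 in turn. At 19W the CONSTANS-LIKE 1-like gene has its highest mean, 108, and the CDF2-like gene one of 3.57. Both ELF4-LIKE 4 copies are lower at 19W than at 8W.

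Between genes, levels were compared in the deposited FPKM, which corrects for gene length. At 8W the order was TOC1 at 36.6 ± 1.35 FPKM (SD, n = 3 here and below), PRR37-like at 35.3 ± 1.43, the 1S ELF4 copy at 19.9 ± 1.83, the 2S copy at 17.2 ± 1.65, CONSTANS-LIKE 1-like at 3.98 ± 1.04, APRR9-like at 2.29 ± 0.374 and CDF2-like at 0.0890 ± 0.0780. TOC1 and PRR37-like differed there by less than their spread. At every later stage the CONSTANS-LIKE 1-like gene was the highest of the 7, with 172 ± 3.83 FPKM (9W), 193 ± 3.62 (13W) and 184 ± 10.6 (19W) at its peaks. The CDF2-like gene was last at 8W and 11W, and the APRR9-like gene was last at the other 5 stages.

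TOC1 encodes a repressor of the morning genes that in Arabidopsis peaks in the evening. In the pellicle it was lowest at 9W and highest at 13W. It measured 75.6, 71.6 and 78.0 scaled CPM in the 3 libraries of 8W, 26.5, 23.0 and 23.4 at 9W, and 49.6, 49.1 and 52.2 at 11W. At 13W the libraries gave 95.3, 98.7 and 92.5, followed by 73.9, 68.2 and 69.6 at 15W, 51.5, 61.3 and 52.7 at 17W, and 35.5, 42.5 and 35.2 at 19W.

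Every consecutive pair of stages was separate for TOC1, with no overlap of libraries. The 9W mean of 24.3 was 3.09-fold below the 8W mean of 75.1. From there the mean was 2.07-fold higher at 11W and again 1.90-fold higher at 13W, then lower at each later stage, by 1.35-fold, 1.28-fold and 1.46-fold. In the order of stage means, 8W and 15W overlapped, as did 17W and 11W. The 13W mean was 3.93-fold above the 9W mean, and 3.83-fold to 4.12-fold when any 1 library of those stages was left out.

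The PRR37-like gene has its best known relatives in the grasses, where PRR37 genes affect flowering time. Its libraries measured 101, 104 and 98.3 scaled CPM at 8W, 153, 157 and 159 at 9W, and 77.3, 81.0 and 85.6 at 11W. They measured 159, 153 and 168 at 13W, 226, 215 and 200.1 at 15W, 157, 145 and 148 at 17W, and 216, 221 and 230.0 at 19W. The mean was 1.54-fold higher at 9W, 1.92-fold lower at 11W, 1.97-fold higher at 13W, 1.33-fold higher at 15W, 1.43-fold lower at 17W and 1.48-fold higher at 19W, with no overlap at any step. At 9W it was higher than at 8W where TOC1 was lower. The 19W and 15W libraries overlapped at the top, and 13W, 9W and 17W overlapped in the middle. The 19W mean was 2.73-fold above the 11W mean.

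The APRR9-like gene was near the limit of detection, with 1 to 50 reads per library and under 10 reads in 9 of 21. The reads were 29, 31 and 43 at 8W, 50, 31 and 27 at 9W, 15, 9 and 11 at 11W, and 15, 19 and 31 at 13W. Later libraries gave 6, 1 and 5 at 15W, 3, 2 and 13 at 17W, and 4, 7 and 6 at 19W. The 9 libraries of the last 3 stages were each below all libraries of 8W and 9W. The ratio of the 8W to the 15W mean was 6.90. The ratio of summed scaled reads was 7.05, with a 95% counting interval of 3.87 to 14.1 that covers counting error only. A single library of 13 reads set the order among the last stages. The 17W mean was 1.46-fold above 15W with it and 0.656 of it without 17W replicate 3, and 19W over 17W moved from 1.02 to 2.26.

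ELF4 is a small protein of the evening complex, which in Arabidopsis represses growth genes and some clock genes at night. No other gene analysed here is listed with the ELF4 family domain. The 1S copy measured 7.41, 8.47 and 7.25 scaled CPM at 8W, 8.75, 7.38 and 7.56 at 9W, and 6.74, 8.86 and 7.60 at 11W. It measured 5.34, 4.02 and 5.64 at 13W, 4.89, 4.53 and 5.19 at 15W, 5.77, 4.80 and 4.32 at 17W, and 2.70, 3.90 and 2.93 at 19W. Its levels formed 3 steps: 8W, 9W and 11W overlapped one another, 13W, 15W and 17W overlapped below them, and all 19W libraries were lower still. The 9W mean was 2.49-fold above the 19W mean.

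The 2S copy had a peak that the 1S copy lacked. Its libraries gave 5.40, 5.73 and 4.83 scaled CPM at 8W and 16.6, 18.7 and 17.3 at 9W, a 3.29-fold higher mean. At 11W they gave 9.84, 6.10 and 6.13, with replicate 1 above the other libraries, and at 13W 4.25, 5.22 and 5.57. Later libraries gave 1.99, 2.05 and 1.41 at 15W, 2.31, 4.07 and 1.20 at 17W, and 1.72, 2.34 and 1.70 at 19W. The last 3 stages overlapped, and all of their libraries were below those of 13W. The 9W mean was 9.65-fold above the 15W mean. In FPKM the 2S copy stood at 57.7 ± 3.74 at 9W against 20.8 ± 1.79 for the 1S copy, and at 4.95 ± 0.956 at 15W against 10.6 ± 0.737, so the order of the copies was reversed between those stages.

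Cyclic dof factors are repressors of CONSTANS and FT in Arabidopsis, where the FKF1 and GIGANTEA proteins mark them for degradation in the afternoon. The CDF2-like gene had at most 5 reads per library at 8W and 11W and at least 35 at all other stages. It had 4, 1 and 1 reads at 8W and 4, 0 and 5 reads at 11W. Between these stages, at 9W, the libraries held 174, 183 and 180 reads, or 8.65, 9.93 and 10.2 scaled CPM. At 13W they held 387, 363 and 392 reads, or 26.5, 25.6 and 27.3 scaled CPM. No library of 9W or 13W came near those of 8W and 11W.

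After 13W the CDF2-like gene was lower and level. It measured 3.44, 2.76 and 3.41 scaled CPM at 15W, 3.31, 2.85 and 2.48 at 17W, and 3.19, 3.35 and 4.16 at 19W, and these stages overlapped. The 13W mean was 8.26-fold above the 15W mean. The 13W to 8W ratio of summed scaled reads was 219, with a counting interval of 100.2 to 597 that rests on 6 reads at 8W. The ratio of the 2 stage means was 218, and it ran from 173 to 437 when 1 library was left out, the highest without 8W replicate 1. Without that library 9W over 8W moved from 79.1 to 158, and 19W over 8W from 29.4 to 58.9.

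CONSTANS-like proteins are transcription regulators with B-box zinc fingers, several of which act in light and daylength responses. Whether the gene described here is one of them is uncertain, since no domain is listed for it. The CONSTANS-LIKE 1-like gene measured 2.19, 2.04 and 1.32 scaled CPM at 8W, from 23 to 36 reads per library, and 77.3, 79.7 and 78.7 at 9W. At 11W the libraries gave 33.4, 19.2 and 22.2, and at 13W 104, 99.1 and 106. The mean was 42.5-fold higher at 9W than at 8W, 3.15-fold lower at 11W and 4.13-fold higher at 13W.

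In the later pellicle the CONSTANS-LIKE 1-like gene dipped and returned. It measured 47.9, 54.9 and 58.5 scaled CPM at 15W, 31.5, 34.6 and 30.0 at 17W, and 103, 115 and 107 at 19W, which was 3.37-fold above 17W. All 6 consecutive steps were without overlap. The 19W and 13W libraries overlapped at the top of the order, and 17W overlapped 11W through replicate 1 of 11W. The 19W mean was 58.4-fold above the 8W mean. The ratio of summed scaled reads was 58.9, with a counting interval of 47.8 to 73.3.

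Replicate 1 of 11W stood apart from the other 11W libraries in several of these values. Its kernel markers summed to 27711 scaled CPM, against 14907 and 13078 in the other libraries of that stage, and its green-tissue markers to 1640 against 1214 and 1104. The same library was the highest of the stage for the CONSTANS-LIKE 1-like gene, the 2S ELF4 copy and, at 15 reads against 9 and 11, APRR9-like. It was not the highest for TOC1, PRR37-like or the 1S ELF4 copy. The kernel markers also differed between the 13W libraries, with 4619, 6933 and 14749 scaled CPM in replicates 1, 2 and 3. Their green-tissue markers summed to 976, 1067 and 1023. Replicate 3 of 13W was the highest of its stage for every gene described here but TOC1, for which it was the lowest. The part of these tissues in the values of both libraries was not tested.

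Step by step, the 7 genes did not move as a block. Neighbouring steps share the libraries of a stage and are not independent. Counting only genes whose libraries did not overlap, 4 were higher and 1 was lower at 9W than at 8W, against 38.4% and 34.6% of all tested genes. At 11W against 9W, 1 was higher and 5 were lower (35.2% and 33.3% of all genes), and at 13W against 11W, 4 were higher and 2 lower (33.3% and 35.1%). At 15W against 13W, 1 was higher and 5 were lower (29% and 30.6%), and at 17W against 15W, 0 were higher and 3 lower (31.4% and 33.3%). At 19W against 17W, 2 were higher and 2 lower (31.3% and 28.5%). With counts this small and members chosen on these values, nothing is read from those shares.

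The last stage differed from the first without overlap for all 7 genes, 3 higher and 4 lower, beside 40.1% and 40.3% of all tested genes. PRR37-like was 2.19-fold higher, CDF2-like 29.4-fold and CONSTANS-LIKE 1-like 58.4-fold. TOC1 was 1.99-fold lower at 19W, APRR9-like 4.65-fold, the 1S ELF4 copy 2.43-fold and the 2S copy 2.77-fold. None of the steps or of these directions differed when libraries were scaled by RLE factors, upper-quartile factors or library sizes alone.

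Across the 21 libraries, Pearson's r of log2 scaled CPM was 0.81 between CDF2-like and CONSTANS-LIKE 1-like, and 0.73 between both ELF4 copies. PRR37-like had an r of 0.70 with CDF2-like and of -0.72 with the 1S ELF4 copy. TOC1 had no r beyond -0.39 with any of the others. These values describe 7 stage levels more than 21 independent points, since the libraries of a stage lie close together.

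The table names walnut chromosomes in D and S pairs, and a gene of the same family near shared neighbours on the partner chromosome was taken as a counterpart. Neighbours were compared by Swiss-Prot name within 10 genes on each side. For TOC1 the counterpart was a second TOC1 gene, Jr6SG00019000 on 6S, which shared 2 of 13 neighbour names and lists a receiver domain but no CCT motif. No position on 6S shared more than 2 names, and 18 positions shared that many, so neighbours give this pairing little support. The 6S gene had 0 to 5 reads per library and 31 in all, and TOC1 on 6D was higher in 21 of 21 libraries. At 8W, where the 6S gene had 10 reads, it stood at 0.140 ± 0.0557 FPKM and the 6D gene at 36.6 ± 1.35.

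For PRR37-like on 7S, the gene compared was APRR9-like on 7D, and this pairing is uncertain: they shared 2 of 11 neighbour names, while nearby positions on 7D shared 4, and the 7D gene lists no receiver domain. PRR37-like was higher in 21 of 21 libraries, by 15.4-fold in mean FPKM at 8W and 157-fold at 19W. The ELF4 copies, on 1S and 2S, were compared only with each other.

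The CDF2-like gene had its counterpart on 3D, Jr3DG00120200, with 5 of 17 neighbour names shared. Both were low at 8W and 11W and high at 9W and 13W, and the 3D gene was higher in 21 of 21 libraries. The 3D gene measured 1.36 ± 0.333 FPKM at 8W and 1.12 ± 0.248 at 11W. It reached 21.7 ± 1.89 at 9W and 38.8 ± 0.619 at 13W. In mean FPKM the 3D gene was above the 3S gene by 15.3-fold at 8W and 8.27-fold at 11W, where the 3S gene had 0 to 5 reads per library, and by 2.11-fold to 3.04-fold at 9W, 13W, 15W and 17W. At 19W it stood at 17.6 ± 3.19 and the 3S gene at 2.07 ± 0.310, an 8.50-fold difference. In scaled CPM, which has the TMM correction, the 3D gene measured 29.0 ± 5.38 at 19W and 27.9 ± 2.29 at 9W. By edgeR the 3D gene rose at 19W against 17W by a log2 change of 2.22 ± 0.14 (SE), with an adjusted p of 1.05e-11 by the quasi-likelihood test.

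The CONSTANS-LIKE 1-like gene on 2D faced Jr2SG00113600 on 2S, also matched to B-box domain protein 31, with 4 of 10 neighbour names shared. The 2S gene kept within 35.8 ± 1.76 FPKM at 19W and 77.0 ± 5.22 at 17W, while the 2D gene ran from 3.98 ± 1.04 at 8W to 193 ± 3.62 at 13W. The 2S gene was higher in all libraries of 8W, 11W and 17W, 9 in number, and the 2D gene in the 12 libraries of the other stages. By edgeR the 2S gene rose at 17W against 15W by a log2 change of 0.97 ± 0.12 and fell at 19W by 0.99 ± 0.12, with adjusted p of 1.79e-07 and 2.15e-07. At both steps the 2D gene went the other way. Whether the authors' counting told reads of such copies apart is not given in the sources used here.

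**Figure D2:**
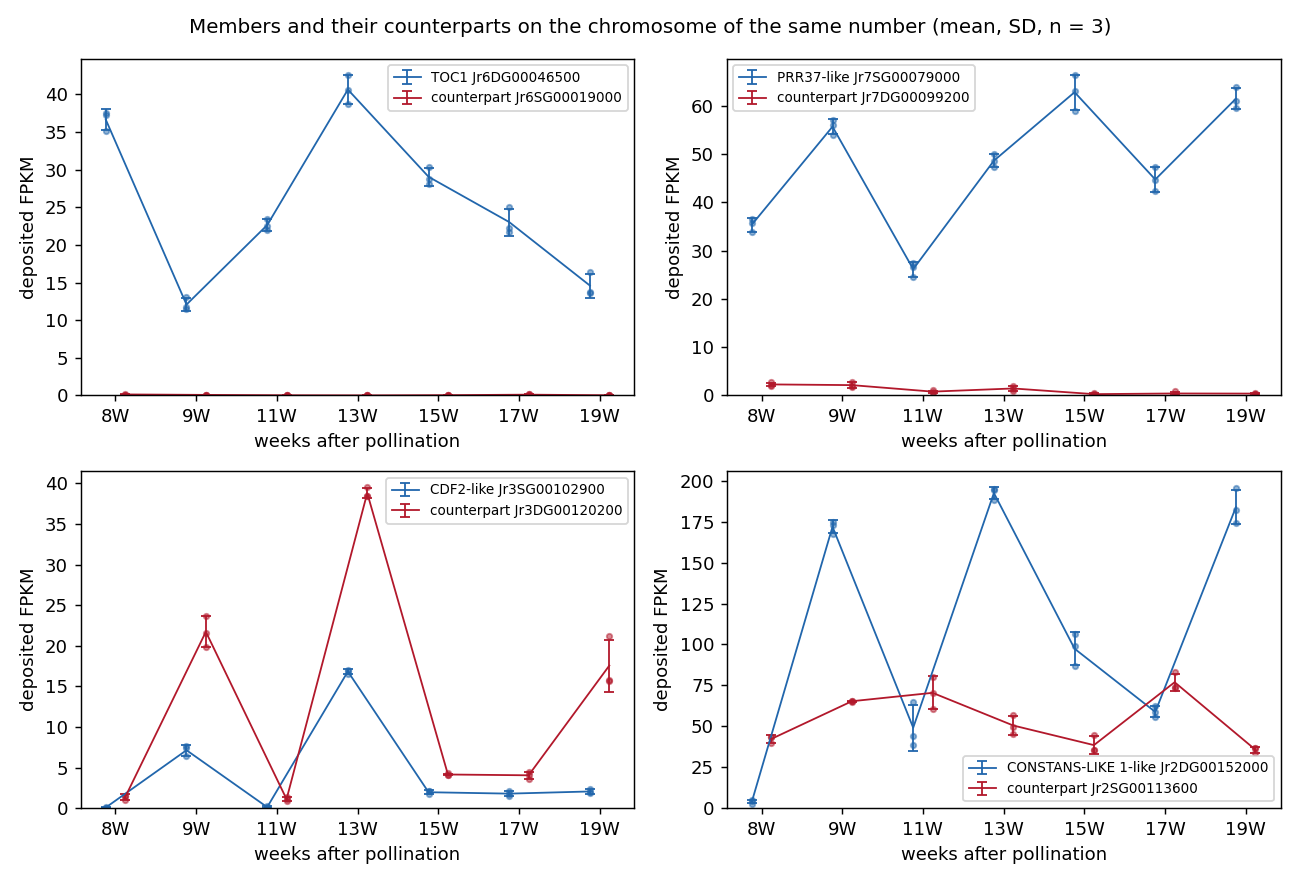
Deposited FPKM of 4 of the genes (blue) and of the genes compared with them on the partner chromosome (red) in every library. Stage means and SD (n = 3) are shown on linear axes from 0. The 7S and 7D pairing is uncertain, and neighbours give the 6D and 6S pairing little support. The 6S TOC1 copy stays near 0, both CDF genes are high at 9W and 13W, and the 2S B-box gene lies above the 2D gene at 8W, 11W and 17W only.

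The genes whose levels followed each member most closely over the 21 libraries were picked by Pearson's r among 9977 named genes of sufficient level and range. For the CONSTANS-LIKE 1-like gene the highest r was 0.974 with REVEILLE 8 (Jr5DG00172600), a morning-phased activator of clock genes in Arabidopsis, followed by hydroxyacylglutathione hydrolase 2 (Jr1SG00066100) at 0.974 and the chaperone dnaJ 6 (Jr5SG00028500) at 0.972. The lowest was -0.974 with a katanin p80 subunit (Jr5DG00146600). REVEILLE 8 had a much narrower range, from 15.3 scaled CPM at 8W to 72.4 at 13W. For PRR37-like the closest were IAA12 (Jr1DG00193100) at 0.963, tipD (Jr6DG00013800) at 0.955 and a B-box protein 19-like gene (Jr4SG00134000) at 0.935, and the most opposite was RNA-binding protein 38 (Jr1SG00169400) at -0.956.

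TOC1 was matched by a calcium-dependent protein kinase 26-like gene (Jr2SG00066600) at an r of 0.928, by a histidine-rich calcium-binding protein (Jr4DG00209200) at 0.897 and by a PHD-type zinc finger protein (Jr1SG00108100) at 0.890, with the lowest r of -0.903 for an N-acetyltransferase-like gene (Jr3SG00124500). The CDF2-like gene was closest to KDELC1 (Jr6DG00143300) at 0.960, a glutathione S-transferase-like gene (Jr4DG00116800) at 0.954 and bHLH68 (Jr2DG00220100) at 0.953, and most opposite to myosin-15 (Jr8DG00094400) at -0.952. For the 2S ELF4 copy the closest was the tonoplast sugar transporter gene Jr4SG00075500 at 0.954, then a fibrillarin 2-like gene (Jr1DG00087300) at 0.947 and a PfkB-like kinase (Jr2SG00044200) at 0.946. Its lowest r was -0.952, with a V-type ATPase subunit c1 gene (Jr3DG00064200).

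For the 1S ELF4 copy the closest were ECHIDNA (Jr4SG00086500) at 0.929, RAB11A (Jr2DG00131400) at 0.925 and purple acid phosphatase 1 (Jr3DG00113500) at 0.924, and the lowest was purple acid phosphatase 20 (Jr5DG00010800) at -0.918. The weakly detected APRR9-like gene reached 0.882 with DNA helicase Q-like 3 (Jr2DG00198800), 0.879 with STXBP5L (Jr5DG00198700) and 0.875 with inositol phosphatase IP5P3 (Jr8DG00011200), and -0.895 with a caffeic acid O-methyltransferase (Jr3DG00193100). As highest values out of 9977, these r are large by selection. They are descriptions over 7 stages.

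Around the 7 genes, 172 of the 203 listed clock and light genes were tested by edgeR's quasi-likelihood method, and 170 differed over the stages, beside 97.7% of all tested genes. At 9W against 8W, 75 rose and 50 fell (34.4% and 31.1% of all genes), and at 11W against 9W, 45 rose and 76 fell (34.3% and 31.6%). At 13W against 11W, 90 rose and 41 fell (32.1% and 35%). At 15W against 13W the counts were 52 and 58 (24.8% and 26.3%), at 17W against 15W 36 and 76 (29.3% and 30.8%), and at 19W against 17W 68 and 37 (28.5% and 26.1%), or 58 and 48 with library sizes alone. At 19W against 8W, 84 rose and 58 fell (39% and 38.8%), or 65 and 71 with library sizes alone, a scaling that shifts the median log2 change of all genes to -0.34.

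**Figure D3:**
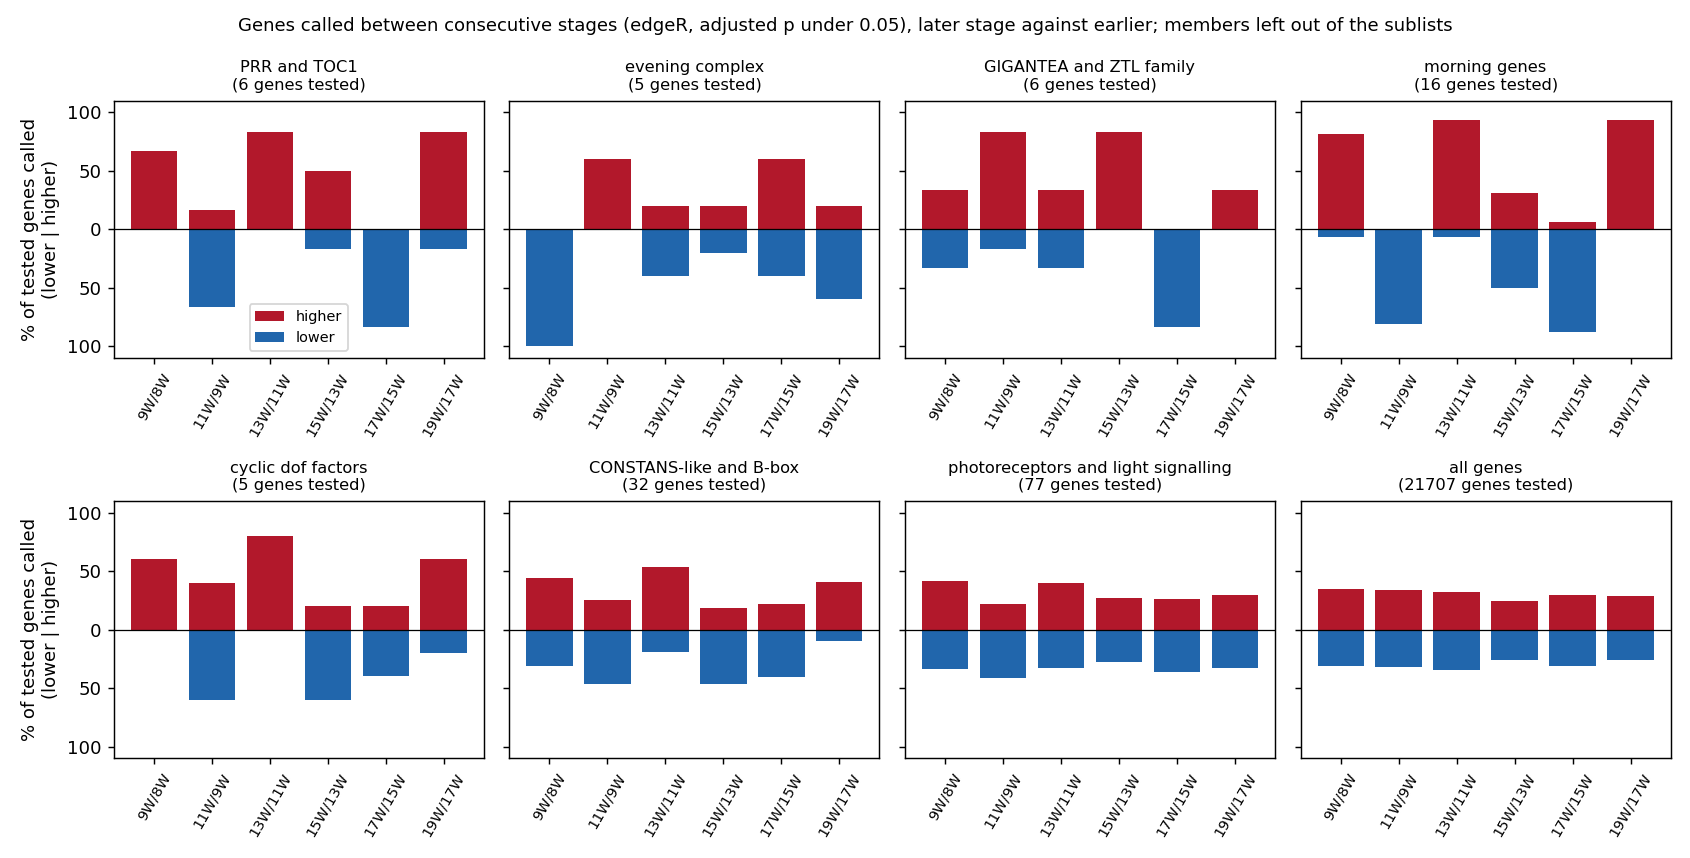
Share of tested genes called higher (red, upwards) or lower (blue, downwards) at the later of 2 consecutive stages, by edgeR at an adjusted p under 0.05, for 7 sublists without the 7 genes described and for all genes. Of 16 morning genes, 15 are higher and 1 is lower at 13W, and 14 are lower at 17W, while all genes divide almost evenly at each step.

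The morning genes include LHY, the REVEILLE genes and the LNK genes. Of 16 tested, 13 rose and 1 fell at 9W, 0 rose and 13 fell at 11W, 15 rose and 1 fell at 13W, 5 rose and 8 fell at 15W, 1 rose and 14 fell at 17W, and 15 rose and 0 fell at 19W. Their median log2 changes were 1.45, -0.70, 1.39, -0.25, -0.73 and 0.99, and those of all genes were 0.04, 0.02, -0.04, -0.02, -0.03 and 0.02. LHY (Jr1DG00089700) was low at 8W and 11W, with 16.6 ± 1.93 and 17.1 ± 4.63 scaled CPM, and higher at 17W, with 56.1 ± 2.74. It reached 291 ± 29.5 at 9W and 165 ± 1.65 at 13W, and the last stages gave 105 ± 2.62 (15W) and 204 ± 3.13 (19W). The stages 9W and 13W are those at which CDF2-like had its highest means, and TOC1 had its lowest mean at 9W and its highest at 13W. The LNK3 gene Jr3SG00066200 was lowest at 17W, at 2.60 ± 0.679, and highest at 9W, at 527 ± 71.7 against 4.27 ± 0.882 at 8W, a log2 change of 6.95 ± 0.15 with an edgeR adjusted p of 1.73e-18. The other LNK3 gene, Jr7SG00012200, reached 1175 ± 78.5 at 19W from 75.4 ± 3.38 at 8W, and REVEILLE 1 (Jr2DG00070000) peaked at 13W at 367 ± 8.46.

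Of 6 other tested pseudo-response regulators, 4 rose and 0 fell at 9W, 1 rose and 4 fell at 11W, 5 rose and 0 fell at 13W, 3 rose and 1 fell at 15W, 0 rose and 5 fell at 17W and 5 rose and 1 fell at 19W. Of these steps PRR37-like was higher at 9W, 13W, 15W and 19W and lower at 11W and 17W. TOC1 was higher at 11W and 13W and lower at 9W, 15W, 17W and 19W. APRR9-like was lower at 11W and 15W, and its libraries overlapped at 9W, 13W, 17W and 19W. At 19W against 8W, 5 of the 6 rose and 0 fell, or 3 and 1 with library sizes alone. The APRR5 gene Jr3SG00045800 ranged from 21.4 ± 2.53 scaled CPM at 17W to 154 ± 11.6 at 13W, the other APRR5 gene Jr3DG00192400 from 34.0 ± 4.66 at 17W to 119.6 ± 7.57 at 15W, and the pseudo-response regulator 9 gene Jr1SG00052800 from 11.2 ± 1.07 at 11W to 114 ± 15.5 at 9W. PRR73 (Jr1DG00283200) kept between 124 ± 11.9 and 204 ± 12.2.

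The evening complex partners of ELF4 fell at 9W, where the 2S ELF4 copy was 3.29-fold higher than at 8W. The 1S copy overlapped between those stages, with means of 7.71 (8W) and 7.90 (9W) scaled CPM. Of the 5 partners tested, 5 fell and 0 rose at 9W. At 11W 3 rose and 0 fell, or 3 and 2 with library sizes alone. ELF3 (Jr8DG00039900) measured 142 ± 5.27 scaled CPM at 8W, 53.7 ± 2.54 at 9W and 163 ± 4.24 at 11W, and the fall at 9W had a log2 change of -1.40 ± 0.069 with an edgeR adjusted p of 4.4e-14. The LUX relative BOA (Jr7DG00088200) stood at 15.6 ± 1.90, 2.71 ± 0.406 and 32.5 ± 3.56 at those stages. The other BOA gene, Jr7SG00068200, was lowest at 9W at 5.31 ± 1.23 and highest at 15W at 23.7 ± 1.39, and ELF3-2 (Jr1DG00239300) was highest at 17W at 64.7 ± 5.49. TOC1 was low at 9W too.

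GIGANTEA and the ZTL family, whose Arabidopsis proteins act in the degradation of TOC1 and the cyclic dof factors, were also measured. Both GIGANTEA genes were lowest at 9W, Jr8SG00007700 at 339 ± 29.2 scaled CPM against 666 ± 31.4 at 8W, and Jr8DG00011600 at 314 ± 12.5 against 463 ± 9.76. Of 6 tested genes, 2 rose and 2 fell at 9W, 5 rose and 1 fell at 11W, and 2 rose and 2 fell at 13W. Then 5 rose and 0 fell at 15W, 0 rose and 5 fell at 17W, and 2 rose and 0 fell at 19W. The FKF1-type gene ADO3 (Jr3SG00060500) peaked at 15W at 199.6 ± 10.3, from 61.4 ± 6.94 at 13W. The ZTL-type gene ADO1 (Jr4DG00190800) ran from 70.0 ± 1.88 at 8W to 192 ± 5.28 at 15W.

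Of 5 other tested cyclic dof factors, 3 rose and 0 fell at 9W, 2 rose and 3 fell at 11W, and 4 rose and 0 fell at 13W. Then 1 rose and 3 fell at 15W, 1 rose and 2 fell at 17W, and 3 rose and 1 fell at 19W. CDF3 (Jr2DG00022600) was low at 8W and 11W, with 13.9 ± 1.02 and 13.5 ± 1.83 scaled CPM, and highest at 13W, with 358 ± 7.27, as CDF2-like was. A CDF2 match on 2S, Jr2SG00015400, peaked at 13W at 165 ± 9.75, whereas the one on 5D, Jr5DG00156200, peaked at 17W at 20.3 ± 1.31. At 19W against 8W, 5 of 5 rose and 0 fell.

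Of 32 tested CONSTANS-like and B-box genes, 14 rose and 10 fell at 9W, 8 and 15 at 11W, 17 and 6 at 13W, 6 and 15 at 15W, 7 and 13 at 17W, and 13 and 3 at 19W. BBX24 (Jr1DG00159200), a light-signalling B-box gene, rose at 9W to 145 ± 14.0 scaled CPM from 45.0 ± 2.58 at 8W, a log2 change of 1.69 ± 0.086 with an edgeR adjusted p of 7.15e-14. CONSTANS-LIKE 4 (Jr4SG00004700) went the other way at that step, to 148 ± 3.73 from 347 ± 41.9, with a log2 change of -1.22 ± 0.074 and an adjusted p of 1.17e-12. CONSTANS-LIKE 2 (Jr2DG00007200) was present at 10.4 ± 2.09 at 9W and 11.8 ± 0.895 at 13W and at most 0.541 ± 0.0860 at the other stages, and 9W and 13W are also the highest stages of CDF2-like. CONSTANS-LIKE 9 (Jr2DG00264900) peaked at 13W at 158 ± 7.89, BBX19 (Jr4DG00060500) at 19W at 225 ± 19.5, CONSTANS-LIKE 13 (Jr4DG00113200) at 17W at 73.1 ± 4.84 and CONSTANS-LIKE 12 (Jr2DG00147400) at 19W at 47.5 ± 4.02. The BBX21 match Jr4DG00157300 gave 30.3, 10.4 and 9.66 at 11W, with replicate 1 again the highest.

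**Figure D4:**
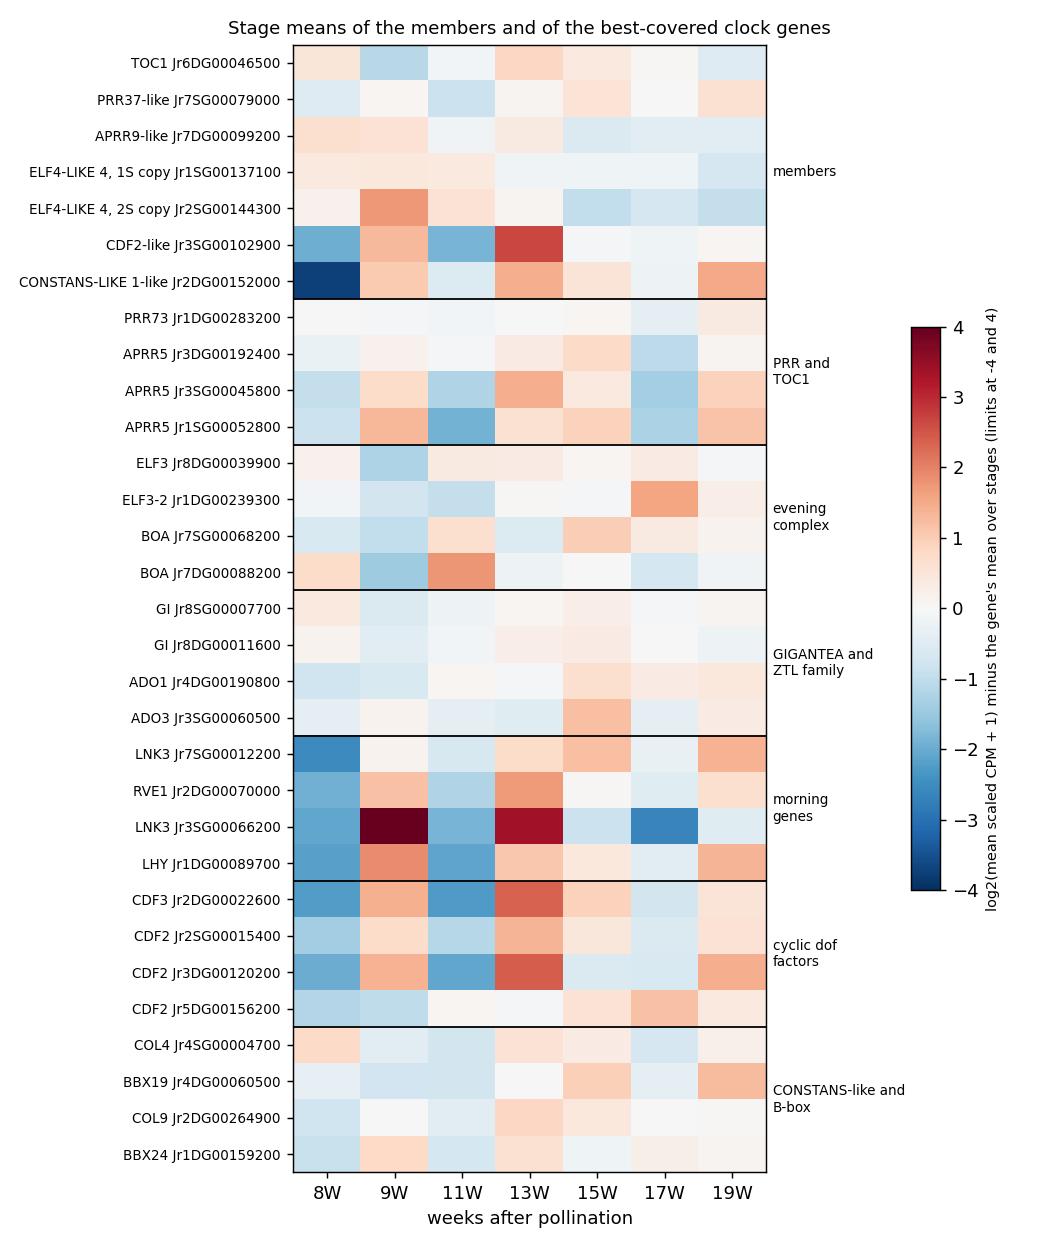
Stage means as log2(scaled CPM + 1) minus each gene's mean over the 7 stages, for the 7 genes described and for up to 4 genes with the most reads in each of 6 sublists. Red is above and blue below the gene's mean, with colour limits at -4 and 4, and LHY, CDF3, CDF2-like and CONSTANS-LIKE 1-like are above their means at 9W and 13W. At 19W LHY and CONSTANS-LIKE 1-like have means of 204 and 108 scaled CPM, and CDF2-like one of 3.57.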

How the data were processed

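Per the labels' protocols, RNA was selected by poly(A), depleted of rRNA and sequenced as stranded paired-end libraries. The submitters' processing notes name FastQC, HISAT2, Cufflinks and DESeq2, without roles. The sources used here give neither the build nor the counter nor its use of strand, so reads may be shared between near-identical, overlapping or antisense genes. The authors deposited whole-number read counts for 31425 genes, not normalized, and FPKM, which equal counts over gene length and library total within a relative 5.15e-15. FPKM was used for levels between genes, for the counterpart pairs at each stage and as an alternative for the log2 ranges. It has no TMM correction, so the order of stages in FPKM can differ from that in scaled CPM. Per the file headers, gene names come from NR and Swiss-Prot.

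Counts passing filterByExpr by stage (minimum count 10, 21707 genes) were fitted with edgeR 4.0.16 (R 4.3.3): TMM, robust quasi-likelihood, 1 coefficient per stage, an F-test over 7 stages and 2-sided contrasts, with Benjamini-Hochberg adjustment over all tested genes at 0.05. The script was tested on simulated data. P-values set differences between stages against the spread between libraries. DESeq2 1.42.0, other scalings, filters and left-out libraries were alternatives. Log2 ranges used a pseudocount of 1 CPM.

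The 7 genes, the gene lists and the tests were chosen with earlier results of these data known. Named genes were the 7, the 4 best-covered genes of each sublist, the largest rise and fall in the list per contrast (at least 10 CPM, no overlap) and the genes of highest and lowest r. A correlation of deviations over 0.1 was found in 0 of 63 same-numbered and 0 of 126 other pairs of libraries, so that cutoff does not separate them.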

Additional observations from a re-analysis of the deposited data

How the results depend on the processing

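The log2 range of each gene (highest over lowest stage mean, with the stages as reported and a pseudocount of 1 CPM) moved by more than the spread between libraries under some settings. With a pseudocount of 5 CPM it was 0.66 for the 1S ELF4 copy (1.09 as reported), 4.05 for CONSTANS-LIKE 1-like (5.26), 1.73 for the 2S ELF4 copy (2.72), 2.62 for CDF2-like (4.62), 1.78 for TOC1 (1.93) and 0.42 for APRR9-like (1.24). With 0.5 CPM it was 5.53 for CONSTANS-LIKE 1-like, 2.96 for the 2S ELF4 copy, 5.44 for CDF2-like and 1.68 for APRR9-like. In FPKM it was 1.54 for the 1S and 3.30 for the 2S ELF4 copy, 4.03 for CDF2-like, 1.67 for TOC1 and 1.20 for PRR37-like (1.44 as reported). With library sizes alone it was 1.39, 2.95, 4.98, 1.71 and 1.22 for the 1S and 2S ELF4 copies, CONSTANS-LIKE 1-like, TOC1 and PRR37-like, and with upper-quartile factors 1.31 for PRR37-like. Under both of those scalings the highest stage was 15W for PRR37-like and 13W for CONSTANS-LIKE 1-like, which overlap 19W, and with library sizes alone the lowest stage of the 2S ELF4 copy was 19W.

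All 30 alternative counts of list genes over the stages and all 434 of the contrasts stayed within 1.5 times those reported. Of 172 tested genes, 170 to 172 differed over the stages when any 1 library was left out, and 171 by DESeq2. The list without FAR1-related genes, an alternative chosen after seeing the data, is shorter, with 151 genes. Of those that passed the filter on low counts, 139 differed. The replicate numbers were not taken to pair the libraries. Same-numbered libraries had a mean r of 0.00332 over 63 pairs, and the 126 other pairs one of -0.00166. The highest r was 0.0617 among same-numbered pairs and 0.0776 among the others. Of 21 libraries, 10 correlated best with their own number, a hint from the data and not the design, and with the replicate block 170 differed and 84 became 85 for the rises at 19W against 8W. Depth limits APRR9-like, and CDF2-like at 8W and 11W.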

Other observations

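Light-signalling, florigen-type and other clock-associated genes were also measured. Of 77 tested light-signalling genes, 28 rose and 34 fell at 19W against 8W by edgeR, or 19 and 42 with library sizes alone. The blue-light receptor PHOT1 (Jr7DG00100400) fell from 125 ± 5.89 scaled CPM at 8W to 6.03 ± 1.37 at 19W, a log2 change of -4.36 ± 0.14 with an adjusted p of 4.41e-18. Phytochrome A (Jr4SG00120200) was at 172 ± 5.59 and 103 ± 0.353 at those stages, CIP7 (Jr1DG00198400) at 262 ± 11.9 and 112 ± 7.30, and the ultraviolet-B receptor UVR8 (Jr2DG00107900) at 197 ± 7.30 and 73.8 ± 6.57. Cryptochrome 1 (Jr4SG00045200) peaked at 13W at 448 ± 9.67, as TOC1 did. A UVR8-like gene, Jr1DG00293200, fell at 17W to 4.46 ± 0.960 scaled CPM (49.3 ± 10.1 at 15W), with a log2 change of -3.47 ± 0.19 and an adjusted p of 4.95e-12.

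The florigen-type list also holds the MADS-box genes SOC1 and AGL42 and a TERMINAL FLOWER 1-like gene. Of its 5 tested genes, 2 rose and 1 fell at 19W against 8W. The FT relative HEADING DATE 3A (Jr4DG00095200) rose from 26.5 ± 3.70 to 144 ± 3.45 scaled CPM, with a log2 change of 2.44 ± 0.12 and an edgeR adjusted p of 6.27e-14. SOC1 (Jr1DG00265800) was at 2.06 ± 0.361 and 16.7 ± 1.67, and AGL42 (Jr2SG00067200) at 11.2 ± 1.05 and 4.39 ± 0.452. TERMINAL FLOWER 1-like (Jr5SG00008000) was highest at 13W at 4.17 ± 2.31 and had no reads at 15W and 17W. Among 20 other clock-associated genes, 10 rose and 8 fell, or 4 and 8 with library sizes alone. TIME FOR COFFEE genes Jr1DG00180300 and Jr1SG00107300 peaked at 13W at 576 ± 18.4 and 491 ± 4.52, and casein kinase II subunits Jr1DG00007100 and Jr7SG00018400 had 363 ± 5.50 and 228 ± 6.14 at 8W and 208 ± 5.84 and 124 ± 4.98 at 9W.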
